A study of Mus musculus with 10 samples.

Results

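The interleukin-1 family comprises secreted cytokines, their receptors and dedicated inhibitors that govern innate inflammation. Il33 and Il1r1 were higher in whole kidneys of mice with a tubule knockout of Lkb1 than in control kidneys. The cytokine genes Il1a, Il1b and Il18 did not pass the test. The family was followed through 10 genes, namely the ligands Il1a, Il1b, Il18 and Il33, the inhibitors Il1rn and Il18bp, and the receptor genes Il1r1, Il1r2, Il1rap and Il1rl1. Members were the array rows that the platform annotation assigns to a single one of these symbols, or to a synonym of it. Of the 10 genes, 9 were matched, each by 1 row, out of 30142 genes with a value. Il1rl1, which encodes the IL-33 receptor ST2, was not analysed here.

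The arrays held RNA of 5 knockout and 5 control mice, each 5 weeks old, with 1 array for each kidney sample. Knockouts carried floxed Lkb1 alleles and the KspCre transgene, in which Cre is driven by the promoter of the tubule gene Cdh16. Controls were littermates without KspCre that carried floxed Lkb1 on 1 or both chromosomes, so the groups differ in the transgene as well as in Lkb1, and effects of these cannot be told apart. The labels call the first group a knockdown of STK11, the gene name of Lkb1, and the controls wild type, and give C57Bl/6N as the strain, whereas the growth protocol describes a knockout and a mixed background for the floxed mice. Values are log2 expression values made by RMA (robust multi-array average), which sets the probe signals of all arrays to a shared distribution. The deposited values had array medians of 5.35 to 5.42 over all rows. A log2 difference of 1 is a doubling.

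In this family, IL-1 alpha and IL-1 beta bind the receptor encoded by Il1r1, which then recruits the accessory chain encoded by Il1rap and signals through MyD88 and NF-kappaB. IL-1 beta and IL-18 are made as inactive precursors that caspase-1 cleaves in inflammasomes, whereas IL-33 is stored in the nucleus of stromal, endothelial and epithelial cells and is released when cells are damaged. The receptor antagonist (Il1rn), the decoy receptor (Il1r2) and the IL-18 binding protein (Il18bp) each hold a cytokine in check.

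The promoter windows of Il33 and Il1rn are shown because the first is the ligand that rose and the second the antagonist that passed the test, whose gene lies in the cluster of the Il1f ligand genes. Each is the 250 bases upstream of the gene's outermost start in RefSeq (GRCm38.p6, the same assembly as mm10), 5′ to 3′ on the plus strand. Capitals mark a TATA box (TATAAA) in Il33 at chr19:29924863-29925112 and an AP-1 motif (TGANTCA) in Il1rn at chr2:24336610-24336859.
Il33: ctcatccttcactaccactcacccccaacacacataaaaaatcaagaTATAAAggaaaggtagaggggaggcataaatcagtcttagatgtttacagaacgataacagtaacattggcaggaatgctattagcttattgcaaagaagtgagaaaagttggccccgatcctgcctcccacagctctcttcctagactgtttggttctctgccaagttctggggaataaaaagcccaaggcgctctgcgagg
Il1rn: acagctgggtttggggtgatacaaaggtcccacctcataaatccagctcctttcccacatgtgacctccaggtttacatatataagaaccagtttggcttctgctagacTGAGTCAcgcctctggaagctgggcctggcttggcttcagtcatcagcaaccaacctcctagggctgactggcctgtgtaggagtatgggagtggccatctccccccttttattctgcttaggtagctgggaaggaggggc
The TATA box in the Il33 window begins 203 bases before the start, and a second Il33 start inside the gene has one at 29 bases before it. The AP-1 motif of Il1rn begins 141 bases before its start. Over both strands, the TATA box letters were found in 12.4% of 32851 such windows of all genes and in 5 of 13 windows of the members. AP-1 letters were in 6.75% of all windows and in 2 of 13 member windows, those of Il1rn and Il1a. The kappaB motif was in 3.90% of all windows and in 1 of 13 member windows, at a start inside Il1r1. Each window shown held a match to 1 of the 3 motifs, so none overlapped there. The starts of Il1r1 in the table lie inside the span of the gene and their windows are not shown.

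Stk11 itself was lower in all 5 knockout kidneys than in all 5 control kidneys. Knockouts 1 to 5 had 9.12, 9.21, 9.07, 9.21 and 9.31, against 9.43, 9.40, 9.48, 9.46 and 9.40 in controls 1 to 5, a log2 difference of -0.25 (SE 0.05, limma adjusted p = 0.00749). The tissue markers of kidney were bright in every kidney, with a mean over 9 measured tubule and glomerulus markers of 11.36 to 11.49 in knockouts and 11.50 to 11.62 in controls. The arrays correlated at 0.992 to 0.998 over all genes. A group mean is called dim below when it lay above fewer than 50% of 5222 negative control probe sets, whose array medians were 5.10 to 5.37. Across all genes, limma with Benjamini-Hochberg adjustment at a threshold of 0.05 called 1614 genes higher and 806 lower in knockouts, which is 5.35% and 2.67% of the genes tested. Of the 9 tubule and glomerulus markers, Aqp2 was called higher (log2 difference 0.94) and 4 did not pass. The 4 called lower were Umod (-0.45), Slc12a1 (-0.35), Lrp2 (-0.21) and Atp6v1b1 (-0.49). Atp6v1b1 had a limma adjusted p of 0.0502 without knockout 3. The median log2 difference of the 9 was -0.11, against -0.03 over all genes.

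Of the 9 measured members, limma called 3 higher in knockouts and 0 lower, also 0 lower before adjustment at p under 0.05, and 6 did not pass, beside the background of 8.03% of all genes called in either direction. The 3 were Il33, Il1r1 and Il1rn, and they were also the 3 members whose groups did not overlap, all 3 with the knockouts higher. Over all genes, groups did not overlap for 8.57%, with knockouts higher for 5.07% and lower for 3.5%. The median log2 difference of the 9 members was 0.07, against -0.03 over all genes. The share of all genes with p under 0.05 before adjustment is not given, here or for the lists below. It is at least 8.03%, since every called gene has such a p. The members were picked with results of these data known, so the counts of members describe them and are no test of the family. Il1a, Il18, Il1rn and Il1r2 were dim in both groups, and no fold is given for them. In whole-kidney RNA, more cells of a type and more RNA per cell cannot be told apart.

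Il33 rose in the knockouts. It encodes the alarmin IL-33, which acts on ST2-bearing mast cells, lymphoid cells and regulatory T cells, and lies on chromosome 19 at 29925113 to 29960718 (GRCm38.p6, as for all positions). Knockouts 1 to 5 had 8.60, 8.59, 8.51, 8.26 and 7.82, against 7.46, 7.75, 7.42, 7.44 and 7.33 in controls 1 to 5. Every knockout was above every control, but knockout 5 exceeded control 2, the highest control, by a small margin and stood apart from knockouts 1 to 3. The means were 8.36 ± 0.33 in knockouts and 7.48 ± 0.16 in controls (SD, n = 5 each). Il33 was thus 0.88 higher on the log2 scale (SE 0.13, limma adjusted p = 0.00221), a ratio of 1.84 with a 95% interval of 1.50 to 2.25. A two-sided exact permutation test gave p = 0.00794, the smallest that 5 against 5 values can give. The signal was well above background, since the knockout mean exceeded 96.5% and the control mean 91.9% of the negative control probe sets. Without knockout 5 the log2 difference was 1.01.

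The other ligand genes did not pass. Il1b, the main product of activated monocytes and macrophages in this family, lies on chromosome 2 at 129364569 to 129371164. It had 5.85, 5.51, 5.38, 5.57 and 5.33 in knockouts 1 to 5, against 5.55, 5.20, 5.57, 5.56 and 5.88 in controls 1 to 5. The groups overlapped almost completely, and the highest value of each group was nearly the same. Knockouts differed from controls by -0.02 in log2 units (95% interval -0.28 to 0.24, limma adjusted p = 0.930), and the group means exceeded 58.4% of the negative controls in knockouts and 58.7% in controls. A rise of the size seen for Il33 thus lies outside the interval for Il1b on this scale, although a signal this near background understates changes.

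Il1a, whose product is active without caspase-1, lies on chromosome 2 at 129299609 to 129310186. Its values were 3.78 to 3.83 in knockouts and 3.74 to 4.05 in controls, and its means exceeded 19.0% of the negative controls in knockouts and 19.95% in controls. Its log2 difference was -0.05 (limma adjusted p = 0.662). No change of Il1a was detectable at this signal.

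Il18, on chromosome 9 at 50554700 to 50581841, encodes the cytokine that drives interferon gamma production by lymphocytes. It had 5.02, 4.87, 4.89, 5.04 and 5.16 in knockouts 1 to 5, against 4.88, 4.80, 4.88, 4.77 and 5.20 in controls 1 to 5. The groups overlapped, with controls 1 and 3 just above knockout 2 and control 5 the highest of all 10 kidneys. On the log2 scale Il18 differed by 0.09 (95% interval -0.09 to 0.27, limma adjusted p = 0.548), with both means below the median of the negative controls.

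The antagonist gene Il1rn passed the test at a signal that was dim in both groups. It lies on chromosome 2 at 24336860 to 24351491. Knockouts 1 to 5 had 5.17, 5.05, 5.24, 4.95 and 5.19, against 4.80, 4.61, 4.67, 4.60 and 4.77 in controls 1 to 5. The groups did not overlap, and the lowest knockout, knockout 4, was above the highest control, control 1. Il1rn differed by 0.43 in log2 units (SE 0.07, limma adjusted p = 0.00206). Its means exceeded 47.9% of the negative controls in knockouts and 37.4% in controls. When values below the negative control median of an array were set to that median, the difference was -0.0019 (limma adjusted p = 0.987), so the call rests on values under that level.

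Il18bp, which encodes the soluble inhibitor of IL-18, was brighter and did not pass. Its values on chromosome 7 at 102015074 to 102018232 were 6.27, 6.23, 6.36, 6.15 and 6.23 in knockouts 1 to 5, against 6.19, 6.17, 6.22, 6.19 and 6.24 in controls 1 to 5. Knockout 4 was the lowest and knockout 3 the highest of all kidneys, so the knockouts enclosed the controls. The difference, 0.05 in log2 units, did not pass (95% interval -0.05 to 0.15, limma adjusted p = 0.563).

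**Figure D1:**
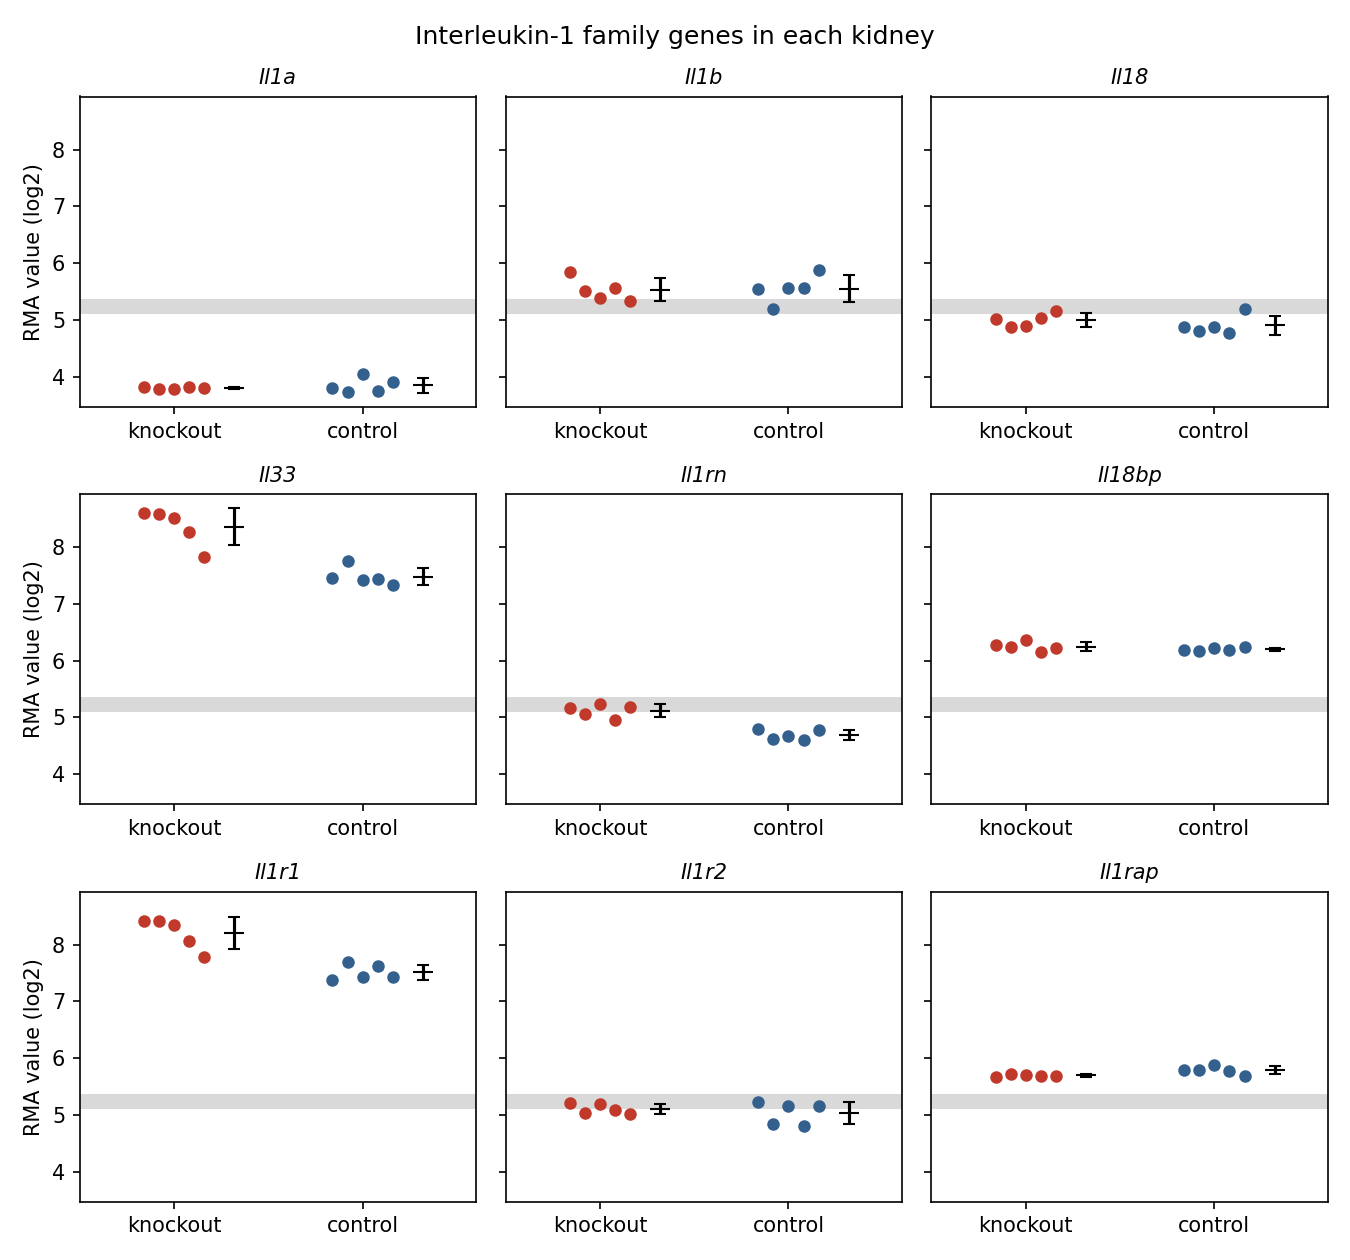
RMA values (log2) of the 9 measured members in each of 5 knockout and 5 control kidneys. Points are kidneys, numbered 1 to 5 from left to right, bars are the mean ± SD, and the grey band spans the array medians of the negative control probe sets, 5.10 to 5.37. Il33 and Il1r1 lie clear of the band and are separated between groups, whereas Il1rn is separated within or under the band.

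Il1r1, the signalling receptor for IL-1 alpha and IL-1 beta, rose in the knockouts. It lies on chromosome 1 at 40222480 to 40316201. Knockouts 1 to 5 had 8.41, 8.41, 8.34, 8.06 and 7.78, against 7.38, 7.69, 7.44, 7.62 and 7.43 in controls 1 to 5. As for Il33, knockouts 1 to 3 were the highest, knockout 5 was the lowest knockout and control 2 was the highest control. The means were 8.20 ± 0.28 in knockouts and 7.51 ± 0.13 in controls (SD, n = 5 each). Il1r1 was 0.69 higher in log2 units (SE 0.12, limma adjusted p = 0.00371), a ratio of 1.61 with a 95% interval of 1.36 to 1.92. Its two-sided exact permutation test also reached 0.00794. The means exceeded 96.1% of the negative controls in knockouts and 92.2% in controls.

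The partner and the decoy of this receptor did not pass. Il1rap, the accessory chain that the receptors for IL-1, IL-33 and IL-36 share, lies on chromosome 16 at 26581509 to 26730128. It had 5.67, 5.73, 5.70, 5.69 and 5.69 in knockouts 1 to 5, against 5.79, 5.79, 5.89, 5.78 and 5.69 in controls 1 to 5. Apart from control 5, every control was above every knockout. Il1rap differed by -0.09 in log2 units (95% interval -0.19 to 0.01, limma adjusted p = 0.251), and the exact permutation test, which was not adjusted for other genes, gave p = 0.0397. Il1r2, the decoy that binds IL-1 without signalling, lies on chromosome 1 at 40084692 to 40125230. It had 5.21, 5.04, 5.19, 5.09 and 5.01 in knockouts 1 to 5, against 5.22, 4.84, 5.17, 4.80 and 5.15 in controls 1 to 5. Controls 2 and 4 were low and the other controls overlapped the knockouts. Its difference was 0.07 in log2 units (95% interval -0.12 to 0.26, limma adjusted p = 0.654), with both groups dim.

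Markers of fibroblasts and macrophages moved with Il33 and Il1r1. Of 7 listed fibroblast markers 6 were measured, and 6 of 6 were higher in knockouts, with a median log2 difference of 1.24. These included the matrix genes Lum, Dcn, Col3a1 and Col1a1. The mean of the fibroblast markers, relative to the control average, was 1.21, 1.52, 1.51, 0.75 and 0.75 in knockouts 1 to 5 and ranged from -0.21 to 0.10 in controls. Of 8 macrophage markers 8 were higher, among them Mrc1, Cd68, Adgre1 and Itgam, with a median difference of 0.80. Their mean was 0.98, 0.97, 1.09, 0.54 and 0.43 in knockouts 1 to 5 and -0.07 to 0.17 in controls. None of these fibroblast or macrophage markers was dim in both groups. Knockouts 4 and 5 thus had the lowest values of both lists, of Il33 and of Il1r1 among the knockouts. Stk11 was highest in knockout 5 among the knockouts, but in knockout 4 it was 9.21, as in knockout 2. A link of Stk11 to these values was not tested.

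With each centred on its control mean, Il33 minus the fibroblast marker mean of the same array was -0.47 to 0.03 in knockouts and -0.16 to 0.23 in controls, so the groups overlapped on that scale. For Il1r1 that value was -0.68 to -0.21 in knockouts and -0.18 to 0.14 in controls, which did not overlap, the knockouts being lower. Against the macrophage marker mean, Il33 was -0.08 to 0.24 in knockouts and -0.19 to 0.26 in controls, and Il1r1 was -0.26 to 0.00 in knockouts and -0.29 to 0.17 in controls. The part of these cells in the rise of Il33 and Il1r1 was not tested.

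Other cells known to make or to receive IL-33 were also followed by their markers. Of 6 endothelial markers, limma called 0 in either direction, and before adjustment 1 lower and 0 higher had p under 0.05. Kdr had the smallest p (log2 difference -0.18), and it passed without knockout 2 (limma adjusted p = 0.0406) and with quantile normalization (0.0437). Their mean lay at -0.16 to 0.19 in knockouts and -0.13 to 0.12 in controls. Of 7 mast cell markers, Kit was lower (-0.25), a gene that other kidney cells also use, 0 were higher by limma, before adjustment too, and 5 were dim in both groups (Cpa3, Mcpt4, Cma1, Fcer1a and Ms4a2). Of 7 measured T, NK and innate lymphoid markers, 3 were higher by limma, namely Cd4, Il7r and Cd3e, and 0 were lower. Among the 4 that did not pass, Cd3g differed by 0.23, Cd8a by -0.05, Ncr1 by -0.08 and Nkg7 by -0.02. The markers of this list thus did not all move in 1 direction. Before adjustment, 4 higher and 0 lower had p under 0.05. With the floor at the negative controls Il7r, which was dim in controls, did not pass (log2 difference 0.12, adjusted p = 0.330). Cd3e had an adjusted p of 0.0503 to 0.0607 without any one of knockouts 1, 2 and 3. The mean of the 7 lymphoid markers was 0.35, 0.31, 0.45, 0.18 and 0.04 in knockouts 1 to 5. It was -0.14 to 0.08 in controls, so knockouts 4 and 5 were the lowest knockouts for this list too. Of 7 neutrophil markers, 0 passed by limma, and before adjustment 2 higher and 0 lower had p under 0.05. Ly6g had the smallest p (log2 difference 0.23), and it passed without knockout 5 (limma adjusted p = 0.0255) and with array weights (0.0339). Of 6 urothelium markers 5 were higher, led by Krt20 and Upk1b, and their mean was 0.62 to 0.96 in knockouts and -0.33 to 0.42 in controls. Upk1a, among these 5, had an adjusted p of 0.0599 to 0.105 without any one of knockouts 2 to 5 or controls 1, 2, 3 and 5. With median centring its limma adjusted p was 0.0596. The part of the lymphoid cells and the urothelium in the members' differences was not tested.

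**Figure D2:**
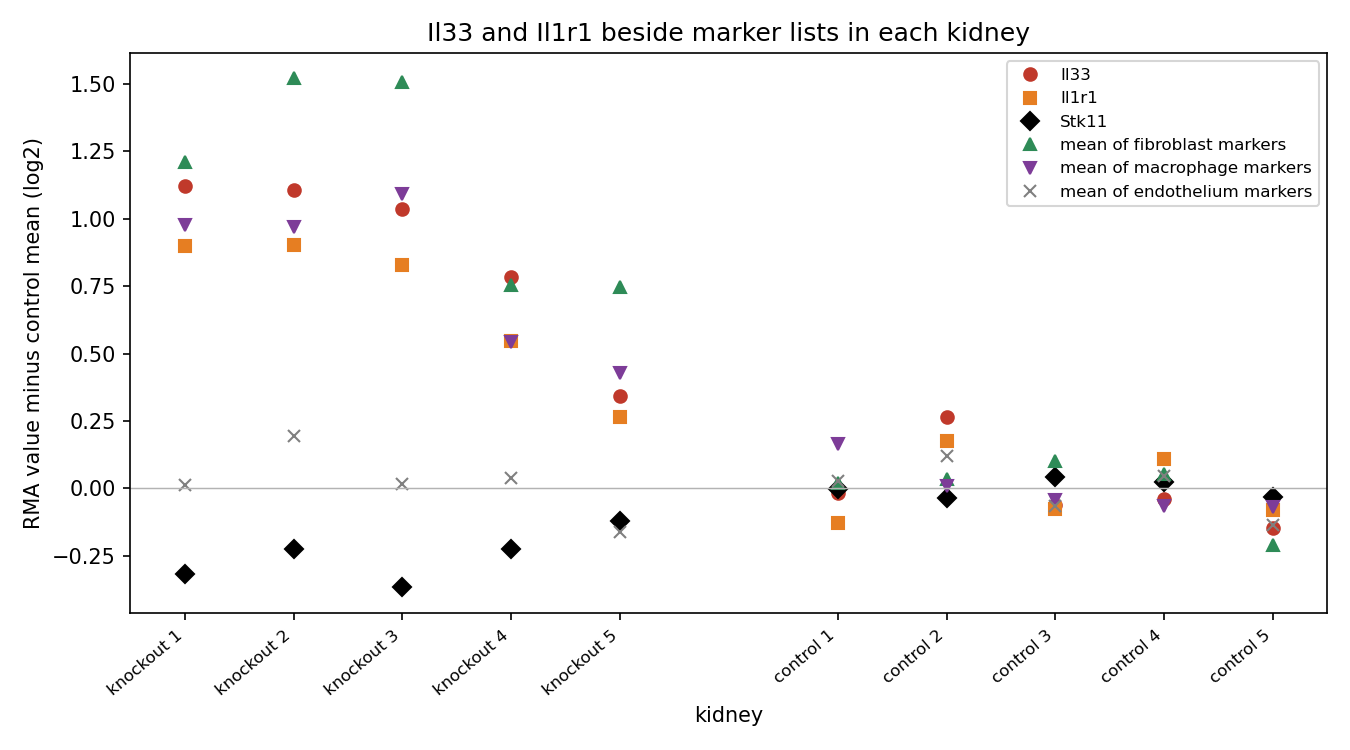
RMA values (log2) minus the control mean, for each of 5 knockout and 5 control kidneys, of Il33, Il1r1 and Stk11 and of the mean of 3 marker lists. Points are single kidneys. Il33 was 0.34 in knockout 5 and 1.12 in knockout 1, and the fibroblast and macrophage means were also low in knockouts 4 and 5, while the endothelial mean stayed within -0.16 to 0.19.

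The genes most like Il33 over the 10 kidneys were Man1c1, Loxl1 and Ache. Likeness was the mean absolute difference between values centred on the control mean, among 18033 genes with established names. These differences were 0.07 for Man1c1, a mannosidase of the Golgi, 0.08 for Loxl1, an enzyme that cross-links elastin, and 0.09 for Ache, acetylcholinesterase. The genes most like Il1r1 were Cpe (0.07), a carboxypeptidase that trims peptide hormones, Dapp1 (0.08), a signalling adaptor of B cells, and Irak3 (0.08). Il1r1 ranked 46th in likeness to Il33 at 0.14. For the dim Il1rn they were the NF-kappaB subunit gene Rel (0.06), Wdfy4 (0.07) and the scavenger receptor gene Msr1 (0.07). A small distance reflects a similar size of difference between the groups as well as a similar order of kidneys within them.

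Other receptors of the family lie beside Il1r1 on chromosome 1. From the start of Il1r2, Il1r1 spans 137.8 to 231.5 kb, Il1rl2 239.9 to 282.9 kb, Il18r1 380.9 to 416.2 kb and Il18rap 430.7 to 467.0 kb. Of 6 further receptor genes of the family, limma called Il1rl2 and Il18r1 higher in knockouts and 0 lower, and 4 did not pass, with a median log2 difference of 0.06. Before adjustment, 3 higher and 0 lower had p under 0.05. Il1rl2, the receptor for IL-36, had 7.10, 6.94, 7.08, 6.43 and 6.69 in knockouts 1 to 5, against 6.27, 5.93, 6.39, 6.60 and 5.92 in controls 1 to 5. Control 4 was above knockout 4, so the groups overlapped. Il1rl2 was 0.63 higher in log2 units (SE 0.15, limma adjusted p = 0.0244, 1.54-fold), but adjusted p lay at 0.0546 to 0.0663 without any one of knockouts 1, 2 and 3 or controls 2 and 5.

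Il18r1, the ligand-binding chain of the IL-18 receptor, had 5.63, 5.72, 5.69, 5.48 and 5.39 in knockouts 1 to 5, against 5.22, 5.26, 5.35, 5.41 and 5.22 in controls 1 to 5. Control 4 exceeded knockout 5, and the other controls lay under all knockouts. Il18r1 was 0.29 higher in log2 units (SE 0.07, limma adjusted p = 0.0251, 1.22-fold), and adjusted p was 0.0501 to 0.0688 without any one of knockouts 1, 2 and 3 or controls 1, 2 and 5. The second chain of that receptor, Il18rap, did not pass and was dim in both groups (log2 difference 0.12, adjusted p = 0.122). Sigirr, an inhibitory receptor of the family, was bright and differed by -0.12 (SE 0.08, limma adjusted p = 0.377). Between Il1rl2 and Il18r1 lies Il1rl1.

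The ligand genes around Il1rn on chromosome 2 were dim in both groups without exception. Of 5 listed, Il1f6, which encodes IL-36 alpha, was higher by limma, 0 were lower (1 before adjustment at p under 0.05) and 4 did not pass. Il1f6 had 4.90, 4.57, 5.04, 4.23 and 4.64 in knockouts 1 to 5, against 3.90, 3.88, 3.70, 3.83 and 3.84 in controls 1 to 5. The groups were well separated, with a log2 difference of 0.85 (SE 0.12, limma adjusted p = 0.00159). Its means nevertheless exceeded only 36.9% of the negative controls in knockouts and 19.4% in controls, so no fold is given. The floor at the negative controls dropped all 5 of these genes, since no value of theirs exceeded the negative control median of its array. It therefore gives no test of the Il1f6 call. Il1f5, the IL-36 receptor antagonist, differed by -0.21 (limma adjusted p = 0.0525) with groups that did not overlap. It was called lower under 7 of 17 alternatives, with adjusted p of 0.0236 to 0.0483, namely median centring, quantile normalization, array weights, no variance trend, the replicate block and without knockout 5 or control 2. Il1f8, Il1f9 and Il1f10 differed by -0.04, -0.11 and -0.04.

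**Figure D3:**
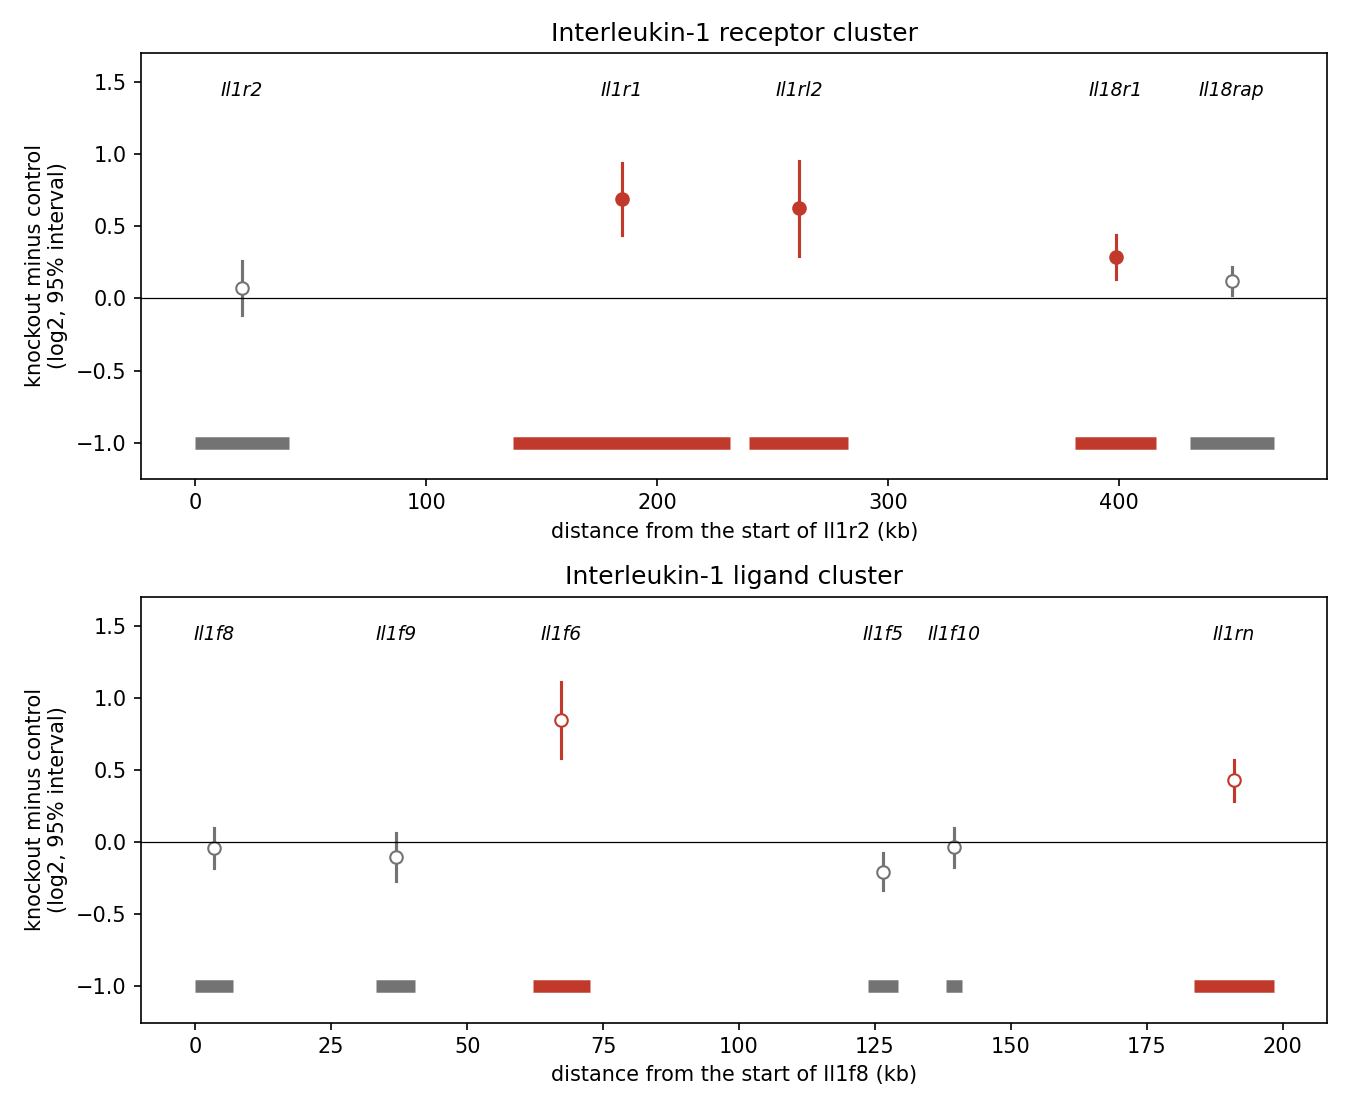
Log2 differences, knockout minus control, with 95% intervals, for the family's receptor genes around Il1r1 and its ligand genes around Il1rn, against distance in kb along the chromosome. Bars at the foot are gene spans, red marks genes higher at an adjusted p under 0.05 and open points are dim in both groups. Il1r1, Il1rl2 and Il18r1 were higher, while Il1r2 and Il18rap at the ends of the receptor cluster did not pass and were dim in both groups.

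Of 15 measured genes for inflammasomes and cytokine processing, limma called 7 higher and 0 lower and 8 did not pass, with a median log2 difference of 0.17. Before adjustment, 9 higher and 0 lower had p under 0.05, a cutoff for which no share over all genes is given. Without any one of knockouts 1, 2 and 3 or controls 1, 3, 4 and 5, the genes called higher numbered 3 or 4. Casp4, which encodes the caspase-11 of mice that senses bacterial lipopolysaccharide inside cells, had 6.32, 6.51, 6.71, 5.64 and 5.55 in knockouts 1 to 5, against 4.87, 4.75, 4.84, 4.97 and 5.05 in controls 1 to 5. The knockouts spread widely, with knockouts 4 and 5 again the lowest, and lay above all controls. Casp4 was at least 1.89-fold higher, the controls being dim (log2 difference 1.25, SE 0.20, limma adjusted p = 0.00260). The bound sets each control to at least the negative control median of its array.

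Casp1, which cleaves the precursors of IL-1 beta and IL-18, was at least 1.01-fold higher (log2 difference 0.54, limma adjusted p = 0.00371), and with dim values set to the negative control median in all kidneys it did not pass (adjusted p = 0.440). Naip5, a sensor of bacterial flagellin, was 1.33-fold higher. Aim2, a sensor of cytosolic DNA, was higher by 0.31 in log2 units but was dim in both groups. Its adjusted p was 0.0538 and 0.0543 without knockout 3 and without knockout 1, and 0.941 with the floor at the negative controls. The remaining 3 calls were the adaptor gene Pycard (0.17), the pore-forming protein gene Gsdmd (0.23) and Naip2 (0.28). Nlrp3, the best studied inflammasome sensor, differed by 0.14 (limma adjusted p = 0.123). P2rx7, also listed, was not measured.

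Most measured genes of the signalling pathway below the receptor did not pass. Of 18 listed genes, Irak1, Irak4 and Chuk were not measured. Of 15 measured, limma called 2 higher and 0 lower, with 3 lower before adjustment at p under 0.05, and 13 did not pass, with a median log2 difference of 0.02. Irak3, an inhibitory member of the IRAK kinases, had 7.45, 7.47, 7.53, 7.18 and 6.93 in knockouts 1 to 5, against 6.75, 6.89, 6.60, 6.65 and 6.52 in controls 1 to 5. The groups did not overlap, and knockout 5 lay just above control 2, as for Il33 and Il1r1. Irak3 was 0.63 higher in log2 units (SE 0.11, limma adjusted p = 0.00460, 1.55-fold). Map3k8, a kinase upstream of ERK, was 1.27-fold higher. The adaptor gene Myd88 differed by 0.045 (95% interval -0.09 to 0.18) and the ubiquitin ligase gene Traf6 by -0.10 (-0.22 to 0.01).

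**Figure D4:**
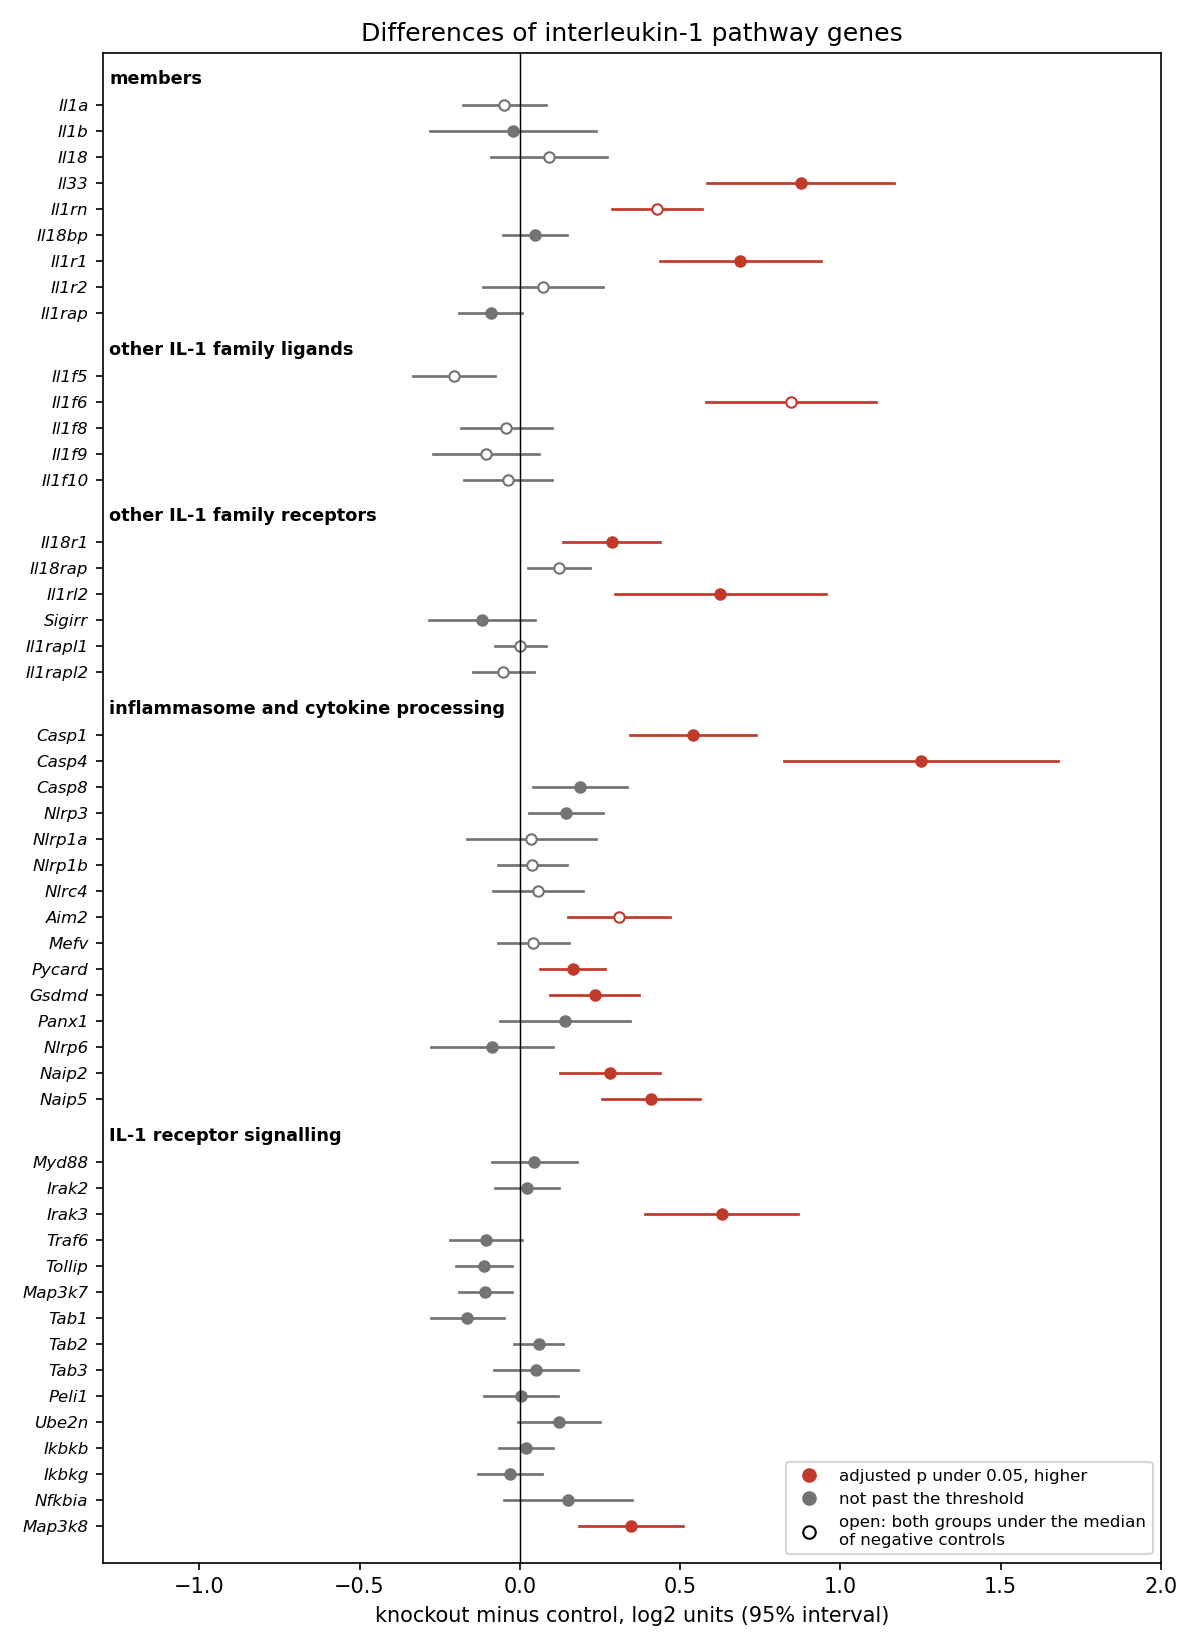
Log2 differences, knockout minus control, with 95% intervals from limma, for the 9 members and 4 lists of pathway genes. Red marks genes higher at an adjusted p under 0.05, grey the genes that did not pass, and open points genes dim in both groups. The members Il33, Il1r1 and Il1rn, 7 of 15 processing genes and 2 of 15 signalling genes were higher, beside 5.35% of all genes. With any 1 kidney left out, 3 to 6 processing genes and 2 signalling genes were called higher.

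Among 11 genes known to respond to IL-1, limma called 3 higher and 0 lower and 8 did not pass, with a median log2 difference of 0.10. Before adjustment, 5 higher and 0 lower had p under 0.05. The 3 were Lcn2, an iron-binding protein of injured tubules (4.40-fold), Nfkbiz, a nuclear partner of NF-kappaB (1.36-fold), and the chemokine gene Cxcl1 (1.41-fold). Cxcl1 had an adjusted p of 0.0520 to 0.0825 without any one of knockouts 1, 3 and 5 or controls 1, 2, 4 and 5. Il6 was dim in both groups (-0.07), and Ptgs2, the inducible prostaglandin synthase gene, differed by 0.62 (SE 0.19, limma adjusted p = 0.0747).

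Of 9 measured genes of the type 2 response that IL-33 can set off, limma called 0 higher and 1 lower and 8 did not pass, with a median log2 difference of -0.07. Before adjustment, 2 higher and 2 lower had p under 0.05, and without knockout 5 limma called 1 higher. The lower gene was Il5, the growth factor of eosinophils (-0.22, limma adjusted p = 0.0280), which was dim in both groups, and its adjusted p was 0.0565 to 0.0714 without any one of knockouts 2 and 3 or controls 1 and 3. Il13 differed by -0.01 (95% interval -0.24 to 0.22), and the chemokine gene Ccl17 by 0.35 (SE 0.13, limma adjusted p = 0.116). Retnla, dim in both groups, differed by 0.30 (SE 0.12, limma adjusted p = 0.148), and Ccl24 by -0.12 (limma adjusted p = 0.201). The groups did not overlap for Retnla, Ccl24 and Il5. Of the listed genes, Areg, Gata3 and Chil3 were not measured.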

How the data were processed

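Total RNA of whole kidneys (500 ng) was labelled with biotin and measured on Affymetrix whole-transcript arrays, per the labels' protocols. The deposited values are log2 values made by the authors with RMA, build mm10, per the submitters' processing notes; the RMA version is not given in the sources used here. Of 72688 rows, 30604 had 1 gene symbol, 2146 several and 39938 none. Symbols were updated through Entrez identifiers (827 rows), and rows were averaged per gene, which gave 30142 genes. The groups were tested in limma (version 3.58.1, under R 4.3.3) by a two-sided fit without covariates, using eBayes with a mean-variance trend and Benjamini-Hochberg adjustment over all genes. The fit was also run on simulated data with values drawn independently for each gene and kidney. Its outcome is not given here and says nothing of effects shared within an array. Permutation tests were exact. Arrays carry no read depth, so their number limits precision. Each mouse is a replicate, per the labels' protocols.

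The members and lists were chosen with earlier results of these data known. Named genes were Stk11, all members, up to 4 called genes per list with the largest differences (otherwise the 1 with the smallest p) and the 3 genes most like each called member; other genes were named after their values were seen. Coordinates and promoters are from RefSeq. Alternatives were a replicate block, leaving out each kidney, quantile normalization, median centring, a filter on dim genes, a floor (added after seeing the data), other variance models, array weights, single rows and exact tests.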

Additional observations from a re-analysis of the deposited data

Results flagged for a closer look

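Among 53 named genes, each tested in 2 groups, 3 kidneys lay far from the rest of their group, and chance alone flags about 1 group in 20. Il18 was 5.20 in control 5, against 4.77 to 4.88 in the other controls. Aim2 was 4.60 in control 2, against 4.80 to 4.83 in the other controls. Upk2 was 6.97 in control 4, against 6.43 to 6.58 in the other controls.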

How the results depend on the processing

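Il33 and Il1r1 stayed higher and past the threshold under every alternative run, with log2 differences of 0.82 to 1.01 for Il33 and 0.64 to 0.79 for Il1r1. Il1rn kept its call under every alternative that could be run on it (0.40 to 0.47 when a kidney was left out), except that the floor at the negative controls turned it to -0.0019, which follows from the floor, since its values lie near or under it. The filter on dim genes removed Il1rn, Il1a, Il18 and Il1r2. Il1rap passed only by the unadjusted exact test (-0.0908, p = 0.0397). The members called higher numbered 2 to 3 over all alternatives and those called lower 0. Leaving out a kidney gave 1089 to 1942 genes higher and 437 to 1470 lower (437 without knockout 2 or 3, 472 without control 3, 498 without control 1, 514 without knockout 1 and 1470 without knockout 5), and 3 members higher throughout. Quantile normalization gave 1619 higher and 1299 lower, so that 55.5% of the calls were higher, against 66.7% in the main comparison, and the cause was not tested. With the replicate number as a block 1826 genes were higher and 955 lower, and Il33 (limma adjusted p = 0.00140), Il1r1 (0.00524) and Il1rn (0.00191) kept their calls, while Upk1a lost its call (0.0515) and Il1f5 gained one (0.0281). Same-numbered kidneys correlated at -0.08 to 0.31 in their deviations from the group means, with kidneys 4 the lowest, and since not every pair was above 0.1 the numbers were not taken as pairs. In these values 7 of 10 kidneys nevertheless correlated best with their own number, a hint from the data of something shared by number. For the 44 other named genes, 782 of 827 alternative values kept direction and side of the threshold, 41 lost their call, 4 gained one and 0 reversed. Signals under the negative controls limit what can be said of Il1a, Il18, Il1r2 and Il1rn.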
